A study of Mus musculus with 8 samples.

Results

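The nucleus accumbens (NAc) of mice conditioned with cocaine was compared with the medial prefrontal cortex (mPFC) of mice that had been through social defeat. These are 4 of the 8 libraries of the study, 2 from each region, grouped by their labels and joined by gene symbol. All mice were adult C57Bl6J males, an inbred strain, and no genetic change or other agent is given for any group. The titles of the mPFC libraries carry the letters WT, for wild type, and those of the NAc libraries do not. The cocaine group explored a place-preference chamber after an intraperitoneal dose of 7.5 mg/kg, and the social defeat group met aggressive CD1 males. Tissue of both was dissected 15 minutes after the experience. The other 4 libraries, 2 of NAc and 2 of mPFC from home-cage mice without either experience, share no library with this comparison and are used beside it. In the exposed mice each region had its own experience and its own deposited count table, so region, experience and table cannot be told apart. The labels do not say whether the libraries of a group came from separate mice or from pooled tissue. The p-values therefore measure only the spread between libraries, which may be technical.

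The NAc is the ventral part of the striatum and takes part in reward and motivation. Most of its neurons are GABAergic projection neurons that carry dopamine receptors of the D1 or the D2 type, and a few are cholinergic or other interneurons. The mPFC is a layered cortical area whose glutamatergic neurons project within the cortex, to the NAc and to other targets, and it takes part in the control of stress responses. The projection neurons of the striatum arise in the ventral telencephalon and the glutamatergic neurons of the cortex in the dorsal telencephalon, under different sets of transcription factors.

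Total counts were 139116911 and 141245049 in cocaine replicates 1 and 2, and 131159838 and 140624648 in social defeat replicates 1 and 2. Between 3.36% and 4.12% of a library's counts fell on its 10 most abundant genes. Of 33885 symbols per table, 9990 had 0 counts in all 4 exposed libraries and 18362 were tested. Levels below are counts per 1000000 counts of the library (CPM), scaled over the 8 libraries and not divided by gene length, so they are compared between libraries and not between genes. Protein-coding genes that lie wholly inside another protein-coding gene in the GENCODE annotation were listed at 0 in all 8 libraries in 462 of 462 cases when the outer gene is on the opposite strand, and in 311 of 313 when it is on the same strand. Of the protein-coding genes that lie inside no other, 10.01% were at 0. P2ry12 of microglia, Gpr17 of oligodendrocyte precursors, Neurod1 and Lrrtm1 to Lrrtm3 are among those listed at 0, which says nothing of their level in the tissue. In bulk tissue, fewer cells of a type and less RNA per cell cannot be told apart, and this holds for every gene group below.

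The 2 cocaine libraries stood apart from each other, and the 2 social defeat libraries much less. The mean log2(CPM + 1) of 34 striatal projection neuron genes was 7.57 in cocaine replicate 1, 6.57 in replicate 2, and 4.97 and 4.96 in the social defeat libraries. For 14 shared cortical neuron genes the cocaine libraries had 5.86 and 6.46, against 7.40 and 7.34 in the social defeat libraries. Cocaine replicate 2 thus lay nearer to the mPFC on both measures. The NAc home-cage libraries differed in the same way, with 7.77 and 6.49 for the striatal genes and 5.65 and 6.56 for the cortical genes. Both the marker levels of another region and the size of the regional difference moved with the library, and their part in the results was not tested.

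Of the 18362 genes tested, 3524 were higher in NAc (19.2%) and 3148 were lower (17.1%) at an adjusted p under 0.05 in edgeR's quasi-likelihood test. Counts of list members below are to be read beside these shares, and several lie near them. The differences upward were the larger ones. More than 2-fold were 1431 of the higher genes and 667 of the lower ones, more than 4-fold 531 and 229, and more than 16-fold 121 and 28. The median absolute log2 fold change was 0.82 among higher and 0.49 among lower genes. Long noncoding RNA genes made up 327 of the higher and 121 of the lower calls. Both cocaine libraries lay above both social defeat libraries in 36.5% of the tested genes and below them in 38.0%, so not overlapping is common in this comparison. Without social defeat replicate 1 the counts were 641 higher and 492 lower, and without replicate 2 they were 905 and 648. In those fits the spread comes from the 2 cocaine libraries alone. Without cocaine replicate 1 there were 4359 higher and 3894 lower genes, and without cocaine replicate 2 there were 4797 and 4537.

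**Figure D1:**
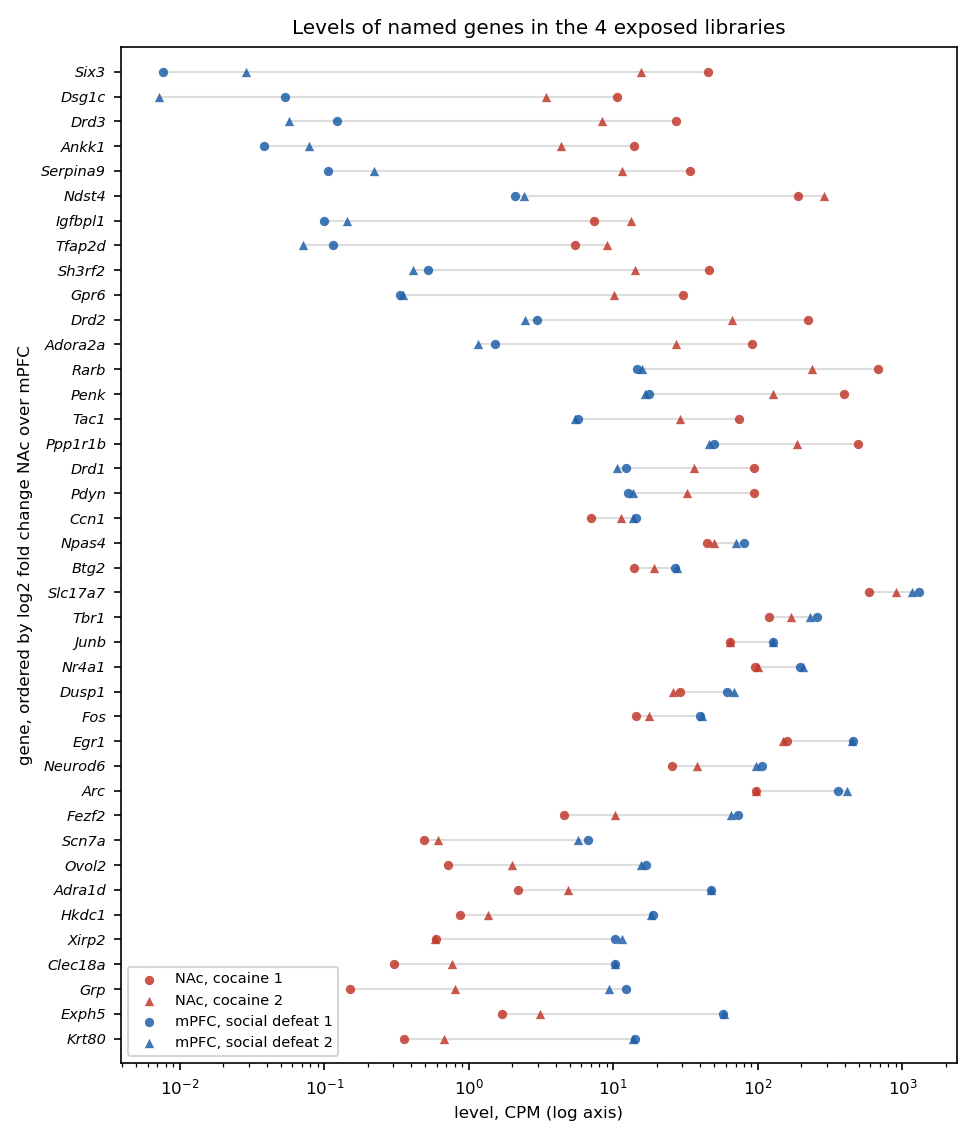
Levels in CPM (log axis) of 40 genes in the 4 exposed libraries, with red for NAc after cocaine, blue for mPFC after social defeat, circles for replicate 1, triangles for replicate 2, and genes ordered by their log2 fold change. The 2 blue symbols mostly coincide, while the red symbols of most striatal genes lie about as far apart as the 45.0 and 15.4 CPM of Six3.

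Six3, a homeobox transcription factor needed for striatal neurons of the D2 type, had the highest log2 fold change of the genes named by rule. It read 45.0 CPM in cocaine replicate 1 and 15.4 CPM in replicate 2, against 0.00762 and 0.0287 CPM in the social defeat libraries. Those mPFC levels rest on 1 and 4 counts, so the log2 fold change of 10.62 (SE 0.948, adjusted p = 0.00185) has no firm upper end. The mPFC of home-cage mice was as low, with 0.0147 and 0.036 CPM. Six3 lies at chr17:85613608-85626191 on GRCm38 (mm10). Its promoter is shown because no other gene named here separated the regions as far. The RefSeq table's window, the 250 bases before a transcript start that lies inside this span (chr17:85620584-85620833, plus strand, GRCm38.p6), holds none of the 3 motifs searched, so no base is in capitals.
Six3: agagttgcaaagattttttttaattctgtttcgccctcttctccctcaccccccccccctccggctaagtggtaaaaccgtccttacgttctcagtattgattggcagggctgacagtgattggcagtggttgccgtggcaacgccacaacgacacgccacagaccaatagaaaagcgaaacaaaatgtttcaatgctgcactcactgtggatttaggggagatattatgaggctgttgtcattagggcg

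The motifs, searched on both strands, were TGACGTCA (the cyclic AMP response element, CRE), TAATTA (a homeobox core that Dlx factors can bind) and CAGATG (an E box that Neurod factors can bind). The first and second read the same on both strands, and none of the 3 contains another. Over 32851 RefSeq promoter windows of 250 bases, they occur in 1.55%, 4.84% and 14.4%. Of the 42 genes that the first 2 parts of the naming rule gave, 26 had a promoter in the table, of which 3 held the CRE, 2 TAATTA and 1 CAGATG. A match describes letters only and shows no bound site.

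Of the 5 dopamine receptor genes, 3 were higher in NAc and 1 lower. Drd2, the inhibitory receptor of D2 type neurons, read 220 and 66.2 CPM in the cocaine libraries against 2.97 and 2.47 CPM in the social defeat libraries, which is 53.3 times higher (log2 fold change 5.74, SE 0.646, adjusted p = 0.00327). Drd3, a receptor enriched in ventral striatum, read 27.2 and 8.30 CPM against 0.122 and 0.0573 CPM, with a log2 difference of 7.64 (SE 0.839, adjusted p = 0.00309). Drd1, the stimulatory receptor of D1 type neurons, had a smaller difference, with 94.1 and 36.1 CPM against 12.3 and 10.6 CPM (log2 fold change 2.52, SE 0.444, adjusted p = 0.0106). For all 3 the lower cocaine library lay above both social defeat libraries, as it did in 36.5% of all tested genes. Drd5, the other stimulatory receptor, was lower in NAc at 1.48 and 1.69 CPM against 3.26 and 2.49 CPM (log2 fold change -0.85, adjusted p = 0.019). Drd4 did not pass (log2 fold change -1.04, adjusted p = 0.0525). Ankk1, a kinase gene next to Drd2 on chromosome 9 (chr9:49415194-49427041, against chr9:49340360-49408177 for Drd2), read 13.9 and 4.35 CPM against 0.0381 and 0.0788 CPM. With social defeat replicate 1 or 2 left out, 2 were higher and 0 lower.

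Genes of the D2 type projection neurons were higher as a whole. All 6 tested members of that list passed, with a median log2 fold change of 4.71 against 0.01 over all tested genes, and 3 and 4 passed without social defeat replicate 1 and 2. Adora2a, the adenosine receptor that opposes D2 signalling, read 91.3 and 27.3 CPM against 1.52 and 1.16 CPM (44.8 times, adjusted p = 0.00383). Penk, the enkephalin precursor, read 393 and 127 CPM against 17.6 and 16.6 CPM (15.4 times, adjusted p = 0.00545). Gpr6, a receptor active without ligand that raises cyclic AMP in these neurons, read 30.1 and 10.2 CPM against 0.335 and 0.351 CPM (59.1 times, adjusted p = 0.00302). In these genes cocaine replicate 1 was 2.96 to 3.34 times above replicate 2, as it was in Drd2 (3.33 times). Of Drd2 and Gpr6, the D2 type genes whose promoters were looked up and found, Gpr6 held a CRE (chr10:41072291-41072540, minus strand). It starts 78 bases before the start and is shown in capitals.
Gpr6: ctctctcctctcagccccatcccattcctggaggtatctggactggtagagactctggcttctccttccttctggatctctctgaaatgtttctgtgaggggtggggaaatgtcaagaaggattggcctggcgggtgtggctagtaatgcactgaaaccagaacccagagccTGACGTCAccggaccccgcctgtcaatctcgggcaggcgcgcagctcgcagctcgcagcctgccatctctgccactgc

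Of the 8 genes of the D1 type list, 6 were higher and 0 lower, with a median log2 fold change of 1.75. Isl1, a transcription factor of this lineage, read 5.94 and 2.09 CPM against 0.0381 and 0.00717 CPM. Tac1, the substance P precursor, read 73.7 and 29.1 CPM against 5.70 and 5.45 CPM (9.31 times, adjusted p = 0.00542). Pdyn, the dynorphin precursor, read 94.5 and 32.1 CPM against 12.6 and 13.7 CPM (4.86 times, adjusted p = 0.0184). Chrm4, a muscarinic receptor of D1 type neurons, did not pass, with 38.3 and 20.9 CPM against 29.2 and 29.8 CPM, so that its libraries overlapped. Its direction turned with the library left out: it was called lower without cocaine replicate 1 (log2 fold change -0.49) and higher without cocaine replicate 2 (0.39), in fits whose spread comes from the 2 social defeat libraries alone. Without social defeat replicate 1 or 2, only 1 and 2 of the 8 genes passed.

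Among 20 genes shared by both kinds of projection neuron, 17 were higher and 0 lower, with a median log2 fold change of 2.07. In all 20, both cocaine libraries lay above both social defeat libraries, as they did in 36.5% of all tested genes. Rarb, a retinoic acid receptor, read 681 and 237 CPM against 14.6 and 15.9 CPM (30.5 times, adjusted p = 0.00306). Rgs9, a regulator of G protein signalling concentrated in striatum, read 584 and 220 CPM against 31.5 and 29.8 CPM (13.2 times, adjusted p = 0.00434). Ppp1r1b, which encodes the dopamine-regulated phosphatase inhibitor DARPP-32, read 491 and 185 CPM against 50 and 45.5 CPM (7.15 times, adjusted p = 0.008). Arpp21, Ptpn5 and Foxp1 did not pass, with log2 fold changes of 0.16, 0.59 and 1.07. All 20 genes were higher in cocaine replicate 1 than in replicate 2, and only 3 and 4 of them passed without social defeat replicate 1 and 2. With cocaine replicate 1 left out, 18 passed.

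Genes of the ventral striatum and of cholinergic neurons were also higher. In the ventral striatum list 7 of 8 passed upward, with a median log2 fold change of 2.57, and 1 passed when either social defeat library was left out. The eighth gene, Wfs1, was called lower without cocaine replicate 1 (-0.24) and higher without replicate 2 (0.31). Dlk1, a Notch pathway ligand, read 24.2 and 9.45 CPM against 1.99 and 2.10 CPM, and Cartpt, the cocaine- and amphetamine-regulated transcript, read 21.6 and 7.74 CPM against 1.91 and 1.76 CPM. Of 5 tested cholinergic genes, 4 were higher, but 0 when either social defeat library was left out. Chat, which makes acetylcholine, read 7.21 and 2.75 CPM against 0.327 and 0.408 CPM (13.6 times, adjusted p = 0.00552). Lhx8, a transcription factor of cholinergic neurons, read 1.73 and 0.630 CPM against 0.0228 and 0.0215 CPM. These levels were low, and the cocaine libraries again differed by more than 2-fold.

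Signalling downstream of dopamine receptors differed gene by gene. Of 42 tested genes of G protein and cyclic nucleotide signalling, 17 were higher and 7 lower, with 1 and 1 without social defeat replicate 1, and 2 and 1 without replicate 2. Without cocaine replicate 1 and 2 the lower ones were 12 and 11. On the side of NAc were Pde1c, a calmodulin-dependent phosphodiesterase (321 and 128 CPM against 13.7 and 15.6 CPM), Prkch, a protein kinase C (150 and 51.5 CPM against 6.28 and 8.44 CPM), and the striatal adenylyl cyclase Adcy5 (log2 fold change 2.09). On the side of mPFC were Rgs4, which shortens G protein signals (86.4 and 68.3 CPM against 221 and 214 CPM, log2 fold change -1.48, adjusted p = 0.00166), the calmodulin-stimulated cyclase Adcy1 (433 and 594 CPM against 1124 and 1163 CPM) and the kinase subunit Prkar1b (log2 fold change -0.59). The olfactory type G protein Gnal was higher in NAc (log2 fold change 1.77), while Gnas, the stimulatory subunit used in most other cells, was lower (-0.51, adjusted p = 0.0392).

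Opioid genes went both ways, with receptors on either side. Beside Penk and Pdyn, the receptors Oprm1 (log2 fold change 1.34, adjusted p = 0.0051) and Oprk1 (1.54, adjusted p = 0.0306) were higher in NAc. Oprk1 read 25.2 and 10.6 CPM against 6.41 and 6.01 CPM. Oprd1, the delta receptor, was lower at 28.4 and 17.1 CPM against 38.6 and 39.6 CPM (log2 fold change -0.77, adjusted p = 0.0465), and the nociceptin genes Pnoc and Oprl1 were lower with log2 fold changes of -0.73 and -0.39. None of the 4 higher and 3 lower calls held when social defeat replicate 1 or 2 was left out.

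Most transcription factors of the ventral telencephalon were higher in NAc and most of the dorsal telencephalon lower. Of 38 ventral factors, 26 were higher in NAc and 4 lower (median log2 fold change 1.37), and 14 and 16 were higher without social defeat replicate 1 and 2. Pbx3 was higher with a log2 fold change of 3.22 (adjusted p = 0.000713), Meis1 with 2.19 and Dlx6 with 2.05, and in Sp9, a factor of D2 type neurons, the libraries were close at 20.5 and 19.7 CPM against 4.93 and 5.22 CPM. The 4 lower ones were Egr3 (82.8 and 82.0 CPM against 243 and 247 CPM), which is also an activity-regulated gene, Npas1, Nr1d1 and the interneuron factor Lhx6. Of 26 dorsal factors, 16 were lower and 4 higher (median -0.74), and 8 and 9 were lower without social defeat replicate 1 and 2. The 4 higher ones were Cux1, Sox5, Bcl11a and Pax6, with log2 fold changes from 0.71 to 1.06.

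Of 18 retinoic acid genes 8 were higher in NAc and 4 lower. Among the higher ones, besides Rarb, the partner receptor Rxrg read 85.1 and 41.2 CPM against 5.33 and 4.35 CPM (13.2 times, adjusted p = 0.00243) and the binding protein Crabp1 read 1.11 and 1.07 CPM against 0.0762 and 0.143 CPM. Among the lower ones were enzymes that make retinoic acid. Aldh1a3 read 0.222 and 0.826 CPM against 4.69 and 4.54 CPM (log2 fold change -3.12, adjusted p = 0.00815), and Aldh1a2 read 0.502 and 0.588 CPM against 1.73 and 2.37 CPM. The receptor Rara was also lower (-0.25), Cyp26a1, which breaks retinoic acid down, was higher (1.27), and Aldh1a1, another synthetic enzyme, did not pass. Without social defeat replicate 1 there were 3 higher and 1 lower genes, and without replicate 2 there were 3 and 2.

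**Figure D2:**
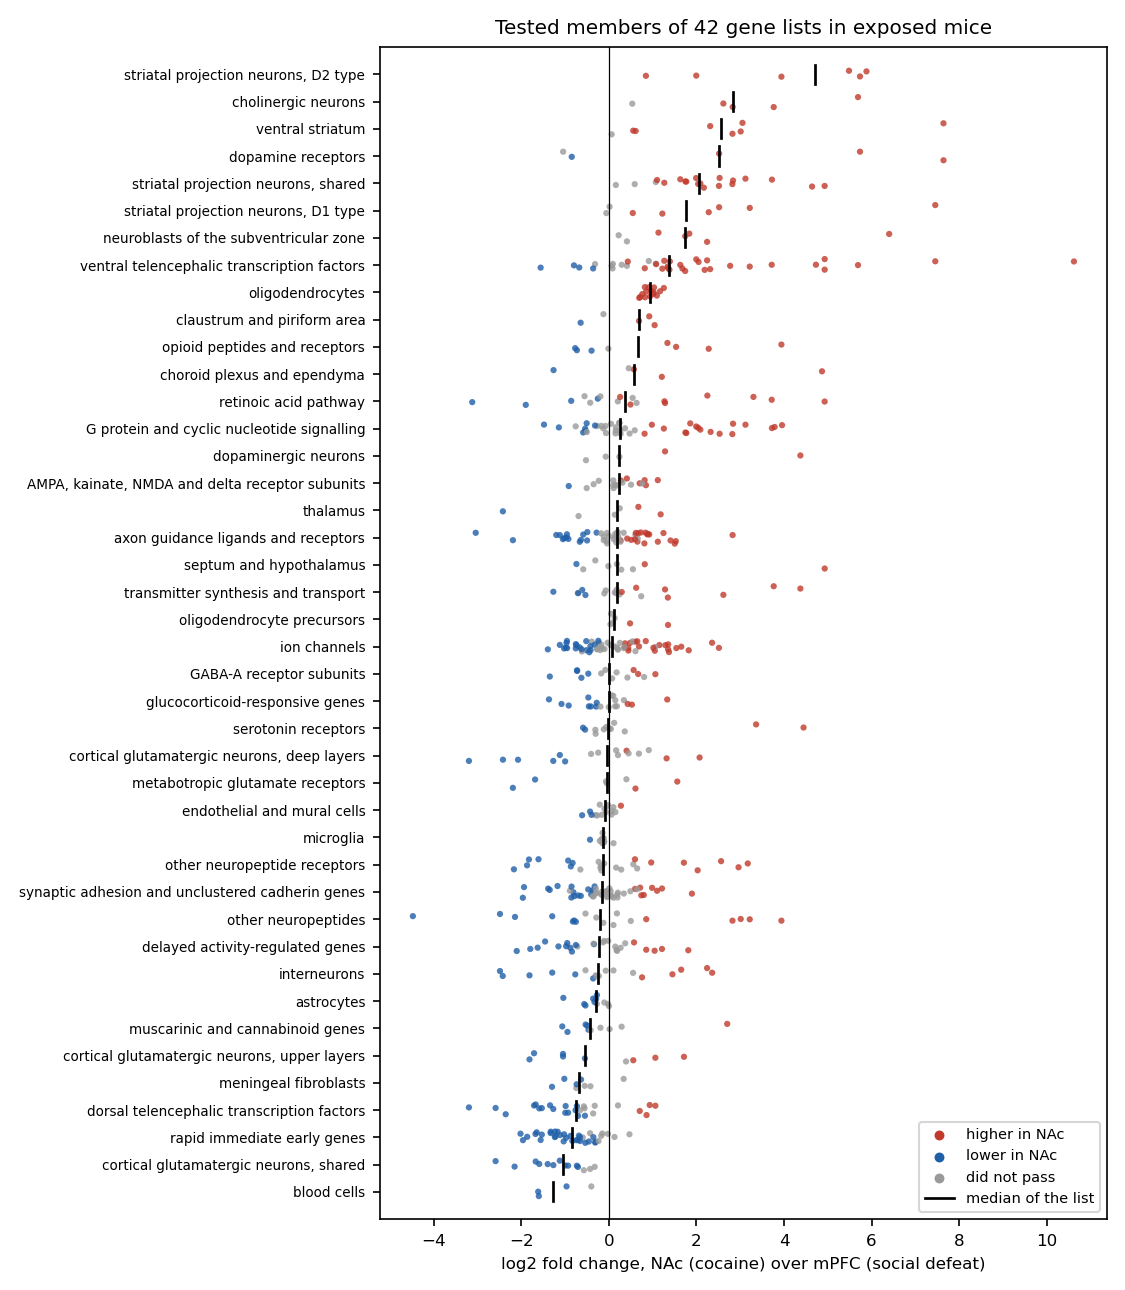
Log2 fold change of NAc over mPFC in exposed mice for every tested member of 42 gene lists, 1 point per gene, with red for genes higher in NAc, blue for lower, grey for those that did not pass, and a black bar at each list's median. Lists are ordered by their median, from -1.28 for blood cell genes to 4.71 for genes of D2 type projection neurons.

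Glutamatergic neuron genes shared by cortical layers were lower in NAc: 11 of 14 passed and 0 were higher, with a median log2 fold change of -1.06, and 5 passed when either social defeat library was left out. Neurod6, a transcription factor of cortical neurons, read 25.6 and 37.9 CPM in the cocaine libraries against 107 and 96.5 CPM (adjusted p = 0.00328). Tbr1, another such factor, read 120 and 170 CPM against 255 and 230 CPM (log2 fold change -0.73, adjusted p = 0.0245). Slc17a7, the vesicular glutamate transporter of these neurons, read 588 and 906 CPM against 1301 and 1157 CPM, and stood at the threshold (log2 fold change -0.70, adjusted p = 0.0494). It did not pass under several other settings. Slc17a7 and Tbr1 were thus well above 0 in both cocaine libraries. In the 14 genes cocaine replicate 2 was the higher of the 2 without exception.

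The Tbr1 window is shown because it holds TAATTA, in capitals, at 2 places, starting 33 and 18 bases before a RefSeq transcript start inside the gene's span (chr2:61804203-61804452, plus strand). Among the windows looked up and found, only that of Tac1, a gene higher in NAc, also holds TAATTA. The Tac1 window, which is not shown, is also the only one of these with CAGATG.
Tbr1: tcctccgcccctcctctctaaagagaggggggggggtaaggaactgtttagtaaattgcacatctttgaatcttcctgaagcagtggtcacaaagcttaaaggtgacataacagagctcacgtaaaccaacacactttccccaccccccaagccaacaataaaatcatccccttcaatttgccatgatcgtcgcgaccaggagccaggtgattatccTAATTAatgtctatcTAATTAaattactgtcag

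By layer the picture was mixed. Of 9 upper layer genes 5 were lower and 3 higher, and without social defeat replicate 1 and 2, 2 were lower in each fit and 1 and 2 higher. Lamp5 (14.5 and 18.1 CPM against 55.8 and 59.5 CPM) and the factor Cux2 (69.9 and 80.9 CPM against 245 and 251 CPM) were lower, while Mdga1, an adhesion protein, was higher (68.8 and 82.7 CPM against 22.7 and 23.8 CPM, log2 fold change 1.72, adjusted p = 0.000785). Of 16 deep layer genes 6 were lower and 3 higher. Fezf2, which specifies neurons that project below the cortex, read 4.57 and 10.3 CPM against 72.3 and 64.7 CPM (9.15 times lower, adjusted p = 0.0034). Deptor, an inhibitor of mTOR, was lower with little spread (13.6 and 13.1 CPM against 55.6 and 57.7 CPM), and Syt6, a synaptotagmin, was higher (168 and 74.8 CPM against 48.0 and 50.3 CPM). Without social defeat replicate 1 or 2, 5 deep layer genes were lower and 1 was higher, and without cocaine replicate 1 and 2 the higher ones were 7 and 6.

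The 10 genes farthest to the mPFC side were Krt80, Exph5, Grp, Clec18a, Xirp2, Hkdc1, Adra1d, Ovol2, Scn7a and Fezf2. Exph5, a Rab27-binding protein, read 1.69 and 3.11 CPM against 57.2 and 58.6 CPM (23.8 times lower, adjusted p = 0.000785). Krt80, a keratin, read 0.359 and 0.672 CPM against 14 and 13.7 CPM (26.6 times lower, adjusted p = 0.000694). Grp, the gastrin-releasing peptide, read 0.151 and 0.805 CPM against 12.2 and 9.34 CPM, with the cocaine libraries 5.34-fold apart, and did not pass without social defeat replicate 1 (adjusted p = 0.0564). Hkdc1, a hexokinase-like protein, read 0.876 and 1.36 CPM against 18.7 and 18.2 CPM (16.3 times lower). Adra1d, an alpha-1 adrenergic receptor, read 2.18 and 4.84 CPM against 47.6 and 47.5 CPM (13.4 times lower, adjusted p = 0.00209). Scn7a, a sodium channel relative, read 0.488 and 0.616 CPM against 6.70 and 5.70 CPM. In Xirp2, an actin-binding protein known from muscle, the cocaine libraries were nearly equal at 0.588 and 0.581 CPM against 10.2 and 11.4 CPM. Clec18a, a C-type lectin, read 0.301 and 0.770 CPM against 10.3 and 10.2 CPM, and Ovol2, a zinc finger factor known from epithelia, read 0.718 and 1.99 CPM against 16.8 and 15.6 CPM. Apart from Xirp2, the genes of this group were higher in cocaine replicate 2 than in replicate 1.

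On the NAc side, the 10 genes farthest out were Six3, Dsg1c, Drd3, Ankk1, Serpina9, Ndst4, Igfbpl1, Tfap2d, Sh3rf2 and Gpr6. Dsg1c, a desmosomal cadherin, read 10.6 and 3.43 CPM against 0.0533 and 0.00717 CPM, the serpin Serpina9 read 33.8 and 11.4 CPM against 0.107 and 0.222 CPM, and Sh3rf2, an adaptor protein, read 45.8 and 14.1 CPM against 0.518 and 0.408 CPM. In 7 of the 10 genes cocaine replicate 1 was the higher, by 2.92 to 3.28 times. The other 3 went the other way. Ndst4, a heparan sulfate sulfotransferase, read 191 and 289 CPM against 2.08 and 2.40 CPM (108 times, adjusted p = 0.000444). Igfbpl1, a marker of new neurons, read 7.33 and 13.2 CPM against 0.0990 and 0.143 CPM (84.6 times, adjusted p = 0.000886). Tfap2d, an AP-2 transcription factor, read 5.44 and 9.0 CPM against 0.114 and 0.0717 CPM (78.1 times, adjusted p = 0.000797). All 3 were thus highest in the library with the lower striatal level. Igfbpl1 belongs to a list of 7 genes of subventricular zone neuroblasts, the migrating cells of a germinal zone close to the striatum. Of these, 5 were higher in NAc (median log2 fold change 1.74), 3 when either social defeat library was left out, and all 7 were higher in cocaine replicate 2 than in replicate 1. Cd24a read 6.04 and 11.0 CPM against 2.54 and 2.27 CPM, and Sp8 read 5.91 and 12.6 CPM against 2.12 and 1.82 CPM.

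**Figure D3:**
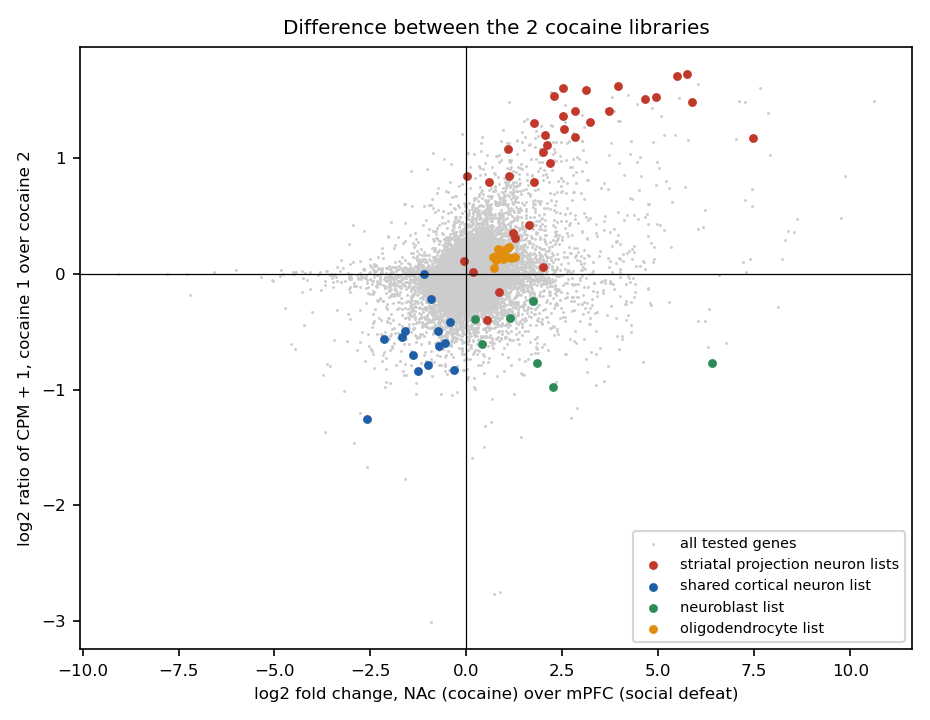
Log2 ratio of CPM + 1 of cocaine replicate 1 over replicate 2 (y axis) against the log2 fold change of NAc over mPFC in exposed mice (x axis), 1 grey point per tested gene and coloured points for 4 sets of lists. Striatal projection neuron genes lie mostly above 0 on the y axis, the 14 shared cortical genes and the 7 neuroblast genes at or below it, and the 15 oligodendrocyte genes slightly above it.

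Over all genes called higher in NAc, cocaine replicate 1 exceeded replicate 2 in 2194 and fell short of it in 1330, and among genes called lower the numbers were 928 and 2217. Above 4-fold, the median ratio of replicate 1 to replicate 2 was 1.33 among higher genes, and that of replicate 2 to replicate 1 was 1.40 among lower genes. Over those genes the median absolute log2 ratio between the cocaine libraries was 0.71 and 0.68, against 0.29 and 0.16 between the social defeat libraries. The plot of the cocaine libraries shows both arms of this pattern.

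The lists of neighbouring tissues were short, with 5 to 9 tested genes each. Of 9 tested genes of septum and hypothalamus, 2 were higher and 1 lower: Nkx2-1, a factor of the ventral forebrain, read 2.12 and 0.840 CPM against 0.0838 and 0.0143 CPM, Zic1 was higher and Zic2 lower. The hypothalamic peptides Avp, Oxt and Pmch had at most 10 counts in any of the 4 libraries and were not tested. The other peptides of that list, Hcrt, Trh and Gal, were tested and did not pass. Of 6 thalamic genes 2 were higher and 1 lower, the last being Ramp3 (2.64 and 2.47 CPM against 14.9 and 12.7 CPM). Of 5 genes of claustrum and piriform area 3 were higher and 1 lower. Nr4a2, which is also on the list of delayed activity genes, read 39.4 and 53.4 CPM against 21.3 and 24.0 CPM. Of 5 genes of dopaminergic neurons 2 were higher, the dopamine transporter Slc6a3 (0.653 and 0.896 CPM against 0.0152 and 0.0573 CPM) and the synthetic enzyme Ddc (7.15 and 5.55 CPM against 2.54 and 2.72 CPM). Slc6a3 was low in all 4 libraries. Of 5 choroid plexus and ependymal genes 3 were higher and 1 lower, with Clic6 at 9.81 and 3.91 CPM against 0.228 and 0.244 CPM. When social defeat replicate 1 or 2 was left out, the thalamic counts stayed at 2 higher and 1 lower, the claustrum and piriform list had 0 in either direction, the choroid plexus list had 1 higher and 0 lower, the dopaminergic list had 1 and 2 higher, and the septum and hypothalamus list had 1 and 0 higher and 0 lower. Without cocaine replicate 1 and 2 the last had 3 and 4 higher.

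Interneuron genes went both ways, with 5 of 18 higher and 6 lower. The counts were 3 and 3 without social defeat replicate 1, and 4 and 3 without replicate 2. Calb2, a calcium buffer of one interneuron class, read 24.4 and 29.6 CPM against 5.26 and 5.35 CPM (5.14 times higher, adjusted p = 0.000589). Pvalb, the calcium buffer of fast-spiking cells, read 2.29 and 3.41 CPM against 14 and 16.8 CPM (5.36 times lower, adjusted p = 0.00165). Crh, the stress peptide that some cortical interneurons make, read 0.416 and 0.364 CPM against 2.32 and 2.10 CPM (5.6 times lower, adjusted p = 0.00114). Chodl was higher and Vip lower, while Sst, Npy and Th did not pass. The median log2 fold change of the list was -0.26, with 11 of 18 genes negative. Its summed level, in which abundant genes weigh most, was 1098 and 1276 CPM in the cocaine libraries and 829 and 834 CPM in the social defeat libraries.

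Among 18 tested neuropeptide genes 5 were higher and 7 lower, and among 24 peptide receptors 7 and 7. The neuropeptides fell to 0 higher with 2 and 4 lower without social defeat replicate 1 and 2, and the receptors to 3 higher and 4 lower in each of these fits. Adcyap1, the peptide PACAP, read 3.06 and 5.49 CPM against 19.8 and 18.2 CPM (4.41 times lower, adjusted p = 0.00404). Oxtr, the oxytocin receptor, read 32.5 and 43.6 CPM against 5.39 and 4.46 CPM (7.80 times higher, adjusted p = 0.000785). Tacr1, the substance P receptor, read 24.0 and 17.1 CPM against 2.73 and 1.88 CPM (9.02 times higher, adjusted p = 0.00133). The mPFC side held Cckbr, the cortical cholecystokinin receptor (23.5 and 33.9 CPM against 111 and 101 CPM), Mc4r (0.359 and 0.455 CPM against 1.91 and 1.78 CPM) and Hcrtr1. Oxtr and Tacr1 separated the regions with cocaine libraries that differed by less than 1.5-fold, unlike Drd2 and Drd3.

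Glutamate and GABA receptor genes included higher and lower members. Of 18 AMPA, kainate, NMDA and delta subunits 6 were higher and 1 lower, and the higher ones fell to 0 and 1 without social defeat replicate 1 and 2. Gria1 read 1646 and 1766 CPM against 775 and 811 CPM (2.17 times higher, adjusted p = 0.00183), and Gria4 read 190 and 196 CPM against 348 and 386 CPM (1.89 times lower, adjusted p = 0.00221). Of 7 metabotropic receptors 2 were higher, Grm4 and Grm5, and 2 lower, Grm2 (12.7 and 22.2 CPM against 81.9 and 78.9 CPM) and Grm8 (95.1 and 122 CPM against 337 and 365 CPM). Of 14 GABA-A subunits 3 were higher, Gabrg3, Gabrg1 and Gabra2, and 5 lower, where 19.2% of all tested genes were higher and 17.1% lower. Gabra2 read 163 and 147 CPM against 101 and 110 CPM. In the fits without social defeat replicate 1 and 2, 1 and 0 GABA-A subunits were higher and 1 was lower in each fit, and of the metabotropic receptors 0 were higher and 2 lower in each. Without cocaine replicate 2, 7 GABA-A subunits were higher and 4 of the 18 AMPA, kainate, NMDA and delta subunits lower.

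Serotonin and muscarinic receptors had a few wide differences. For comparison with their counts, 19.2% of all tested genes were higher and 17.1% lower. Htr2c read 265 and 196 CPM against 23.1 and 22.1 CPM (10.3 times higher, adjusted p = 0.000589), and Htr1d read 9.42 and 4.35 CPM against 0.343 and 0.294 CPM (21.8 times higher, adjusted p = 0.00245). Both passed when either social defeat library was left out, as the 2 higher genes of the 12 tested. Htr5a and Htr7 were lower by 1.5 and 1.46 times, and neither passed when either social defeat library was left out. Without either cocaine library 4 serotonin receptors were lower. Among 10 muscarinic and cannabinoid genes 1 was higher, Chrm5 at 0.675 and 0.483 CPM against 0.114 and 0.0645 CPM, and 5 lower, among them Chrm3 (132 and 188 CPM against 302 and 374 CPM) and Dagla, an enzyme of endocannabinoid synthesis. Leaving out social defeat replicate 1 and 2 in turn, 1 and 0 of these 10 were higher and 0 and 1 lower, and without cocaine replicate 1, 8 were lower. Of 19 genes of transmitter synthesis and transport 7 were higher and 4 lower, which fell to 1 and 2 higher and 0 lower without social defeat replicate 1 and 2.

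Of 62 ion channel genes 21 were higher and 19 lower, and without social defeat replicate 1 and 2 these were 4 and 4, and 4 and 5. Cacng5, an AMPA receptor partner, read 26.1 and 31.6 CPM against 5.88 and 5.48 CPM (5.13 times higher), Kcnip1, a partner of A-type potassium channels, read 138 and 108 CPM against 31.5 and 38.6 CPM, and Scn4b, a sodium channel subunit of striatal neurons, read 285 and 93.4 CPM against 31.7 and 35.2 CPM. Kcns1, Kcnv1 and Kcnb2 led the lower channels with log2 fold changes of -1.39, -1.12 and -1.02. The regions did not overlap in any of these 6 genes, which were picked for large fold changes among those that passed. Of all tested genes, 36.5% had both cocaine libraries above both social defeat libraries and 38.0% had both below.

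Axon guidance genes were 19 higher and 15 lower of 53, with 4 and 9 without social defeat replicate 1, and 7 and 10 without replicate 2. Netrin-1 (Ntn1) read 127 and 56.1 CPM against 12.4 and 13.6 CPM (7.10 times higher, adjusted p = 0.00515) and Slit3 read 1024 and 787 CPM against 299 and 333 CPM. The receptors Robo3 (1.03 and 1.67 CPM against 9.79 and 12.6 CPM) and Ephb6 (46.5 and 39.8 CPM against 209 and 188 CPM) were lower by 8.22 and 4.56 times. Of 49 synaptic adhesion and cadherin genes 8 were higher and 15 lower, with 2 and 5 without social defeat replicate 1, 3 and 7 without replicate 2, 13 and 20 without cocaine replicate 1, and 12 and 24 without cocaine replicate 2. Over all tested genes the shares were 19.2% higher and 17.1% lower. Cdh4 read 265 and 270 CPM against 70.2 and 74.7 CPM (3.73 times higher, adjusted p = 0.000508). Cbln2, a synaptic organizer, read 5.94 and 9.81 CPM against 30.2 and 30.7 CPM (3.83 times lower).

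All 15 oligodendrocyte genes were higher in NAc, with log2 fold changes between 0.70 and 1.26 and a median of 0.94. Mobp, a myelin protein, read 438 and 396 CPM against 173 and 179 CPM (2.39 times, adjusted p = 0.00115), and Opalin read 18.9 and 17.2 CPM against 8.02 and 8.16 CPM (2.25 times, adjusted p = 0.00118). The summed level of the list was 2791 and 2470 CPM after cocaine, against 1243 and 1366 CPM in the social defeat libraries. Without social defeat replicate 1 and 2, 10 and 15 of the 15 passed. In home-cage mice 0 of the 15 passed, where 7.01% of all 18300 tested genes were called higher and 5.35% lower, with a median log2 fold change of 0.43, and the sum was 2620 and 1486 CPM in NAc and 1651 and 1372 CPM in mPFC. NAc home-cage replicate 2 lay among the mPFC libraries. In that comparison 0 of the 15 had an unadjusted p under 0.05 in edgeR, and the DESeq2 Wald test and limma-voom also called 0. Of 6 oligodendrocyte precursor genes 2 were higher, Enpp6 and C1ql1, and 0 and 1 without social defeat replicate 1 and 2.

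Astrocyte genes were lower, 7 of 11, with a median log2 fold change of -0.29 and 1 when either social defeat library was left out. Gjb6, a gap junction protein, read 13.6 and 13.0 CPM against 27.8 and 27.3 CPM (2.05 times lower, adjusted p = 0.000886), and Slc1a2, the main glutamate transporter, read 2027 and 2064 CPM against 2922 and 3053 CPM. Of 10 microglial genes 1 was lower, Tmem119 (1.35 times), but 6 without cocaine replicate 2 and 0 when either social defeat library was left out. Of 16 endothelial and mural genes 3 were lower and 1 higher, where 17.1% of all tested genes were lower and 19.2% higher. Of 8 meningeal fibroblast genes 4 were lower, among them Dcn at 1.56 and 1.5 CPM against 2.82 and 3.43 CPM. When either social defeat library was left out, 1 endothelial and mural gene was lower and 0 higher, and of the meningeal genes 1 and 0 were lower without replicate 1 and 2.

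Blood cell genes were lower in NAc in 3 of 4 tested cases, and in 1 when either social defeat library was left out. Hba-a1 read 18.6 and 13.4 CPM in the cocaine libraries against 52.0 and 46.7 CPM in the social defeat libraries (3.06 times lower, adjusted p = 0.00246), and Hbb-bs read 2.49 and 1.29 CPM against 5.70 and 5.85 CPM. The home-cage levels of Hba-a1 were 13.9 and 11.8 CPM in NAc and 16.7 and 17.0 CPM in mPFC. The social defeat libraries alone were high. The 2 alpha chain genes are close copies of each other, so the split of reads between them is uncertain.

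Rapid immediate early genes, whose transcription starts minutes after a neuron is active, were lower in the NAc libraries than in the mPFC libraries. Of 37 tested, 29 were lower and 0 higher, with a median log2 fold change of -0.83, and 18 and 19 were lower without social defeat replicate 1 and 2. Arc, a synaptic protein, read 97.6 and 97.4 CPM against 355 and 410 CPM (3.89 times lower, adjusted p = 0.000589). Trib1, a pseudokinase, read 10.5 and 11.7 CPM against 44.9 and 46.0 CPM (4.05 times lower, adjusted p = 0.000444), and the zinc finger factor Egr2 read 4.67 and 4.74 CPM against 17.2 and 17.3 CPM (3.64 times lower, adjusted p = 0.000508). In these genes, unlike the striatal ones, the cocaine libraries lay close together.

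Fos, a part of the AP-1 factor, read 14.4 and 17.7 CPM against 39.8 and 41.3 CPM (2.51 times lower, adjusted p = 0.00152). Egr1 read 160 and 150 CPM against 453 and 449 CPM (2.89 times), Nr4a1 95.1 and 101 CPM against 195 and 206 CPM (2.03 times), and Junb 64.3 and 64.3 CPM against 128 and 127 CPM (1.97 times). Npas4, a factor specific to active neurons, differed less, with 44.5 and 49.6 CPM against 79.6 and 70.2 CPM (1.58 times, adjusted p = 0.00601). Btg2 read 13.9 and 19.2 CPM against 26.6 and 27.6 CPM (1.63 times, adjusted p = 0.0192) and passed in neither fit with 1 social defeat library. Ccn1, a matrix signalling protein, did not pass (6.99 and 11.3 CPM against 14.2 and 13.6 CPM, adjusted p = 0.0834). Sik1, Jun and Atf3 also did not pass, and Jun and Atf3 had positive log2 fold changes of 0.13 and 0.47.

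Dusp1, a phosphatase that switches off MAP kinases, read 29.0 and 25.7 CPM against 61.3 and 68.1 CPM (2.34 times lower, adjusted p = 0.00124). Its window (chr17:26508473-26508722, minus strand) and that of Btg2 (chr1:134079156-134079405, minus strand) hold a CRE, in capitals, starting 143 and 166 bases before the RefSeq start. They are shown because they hold this motif among the early genes whose windows were looked up and found. The windows of Fos, Npas4, Junb, Nr4a1 and Ccn1 were also found and hold no CRE. Windows were looked up only for the first 2 parts of the naming rule, so not for Trib1 or Egr2. Arc and Egr1 had no window.
Dusp1: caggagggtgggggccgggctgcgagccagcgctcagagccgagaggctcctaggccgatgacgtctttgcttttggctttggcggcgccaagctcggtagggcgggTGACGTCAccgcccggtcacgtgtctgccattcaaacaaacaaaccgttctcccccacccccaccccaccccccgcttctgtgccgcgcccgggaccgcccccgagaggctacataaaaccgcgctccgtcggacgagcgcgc
Btg2: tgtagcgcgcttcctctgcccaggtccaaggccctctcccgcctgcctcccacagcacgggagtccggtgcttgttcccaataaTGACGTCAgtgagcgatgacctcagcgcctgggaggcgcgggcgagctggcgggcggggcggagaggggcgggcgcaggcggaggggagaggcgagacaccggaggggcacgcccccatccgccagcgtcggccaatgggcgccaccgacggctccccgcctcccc

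Early genes were also compared between the regions of home-cage mice. There, 8 of 37 were lower and 0 higher, where 5.35% of all genes tested in home-cage mice were called lower and 7.01% higher. The median log2 fold change of the 37 was -0.32. Egr1 was lower in home-cage NAc at 122 and 149 CPM against 316 and 315 CPM (log2 fold change -1.22, adjusted p = 0.00968), and Trib1 at 8.26 and 13.2 CPM against 27.2 and 27.2 CPM (-1.35, adjusted p = 0.0252). Junb had 33.7 and 46.0 CPM in home-cage NAc and 35.5 and 45.0 CPM in home-cage mPFC (-0.02, adjusted p = 0.955). Npas4 had 12.6 and 16.8 CPM against 17.4 and 19.1 CPM, and Dusp1 had 16.0 and 18.5 CPM against 23.8 and 22.5 CPM. All 8 of Arc, Egr1, Egr2, Fos, Junb, Dusp1, Npas4 and Nr4a1 had higher means in both exposed groups than in the home-cage group of the same region. These 8 are a choice from the 37, and this was not tested. Over the 37 genes the mean log2(CPM + 1) was 4.32 and 4.39 after cocaine, against 3.79 and 4.13 in home-cage NAc. It was 5.17 and 5.21 after social defeat, against 4.34 and 4.45 in home-cage mPFC.

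**Figure D4:**
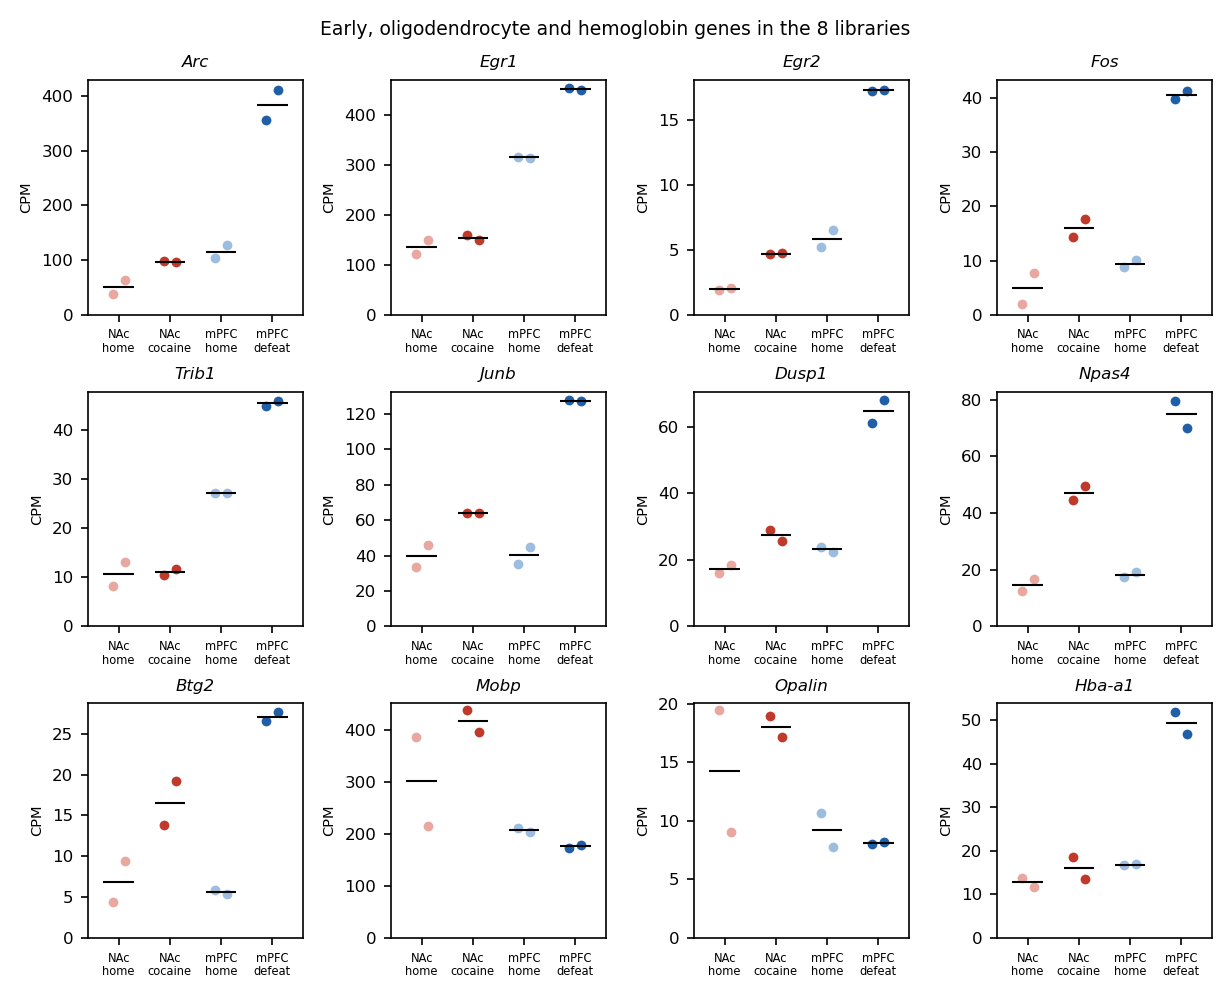
Levels in CPM (linear axes from 0) of 9 early genes, the oligodendrocyte genes Mobp and Opalin and the hemoglobin gene Hba-a1 in all 8 libraries, 2 points per group with a black line at the group mean. The social defeat libraries are the highest of the 4 groups for each of the 9 early genes and for Hba-a1, at 52.0 and 46.7 CPM for the last.

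Delayed activity genes were 5 higher and 11 lower of 26, with 1 and 5 without social defeat replicate 1, and 1 and 7 without replicate 2. Ptgs2, which makes prostaglandins, read 2.92 and 5.96 CPM against 21.4 and 17.1 CPM (4.29 times lower, adjusted p = 0.00762), Pcsk1, a prohormone protease, read 19.3 and 28.0 CPM against 80.4 and 85.2 CPM, and Inhba, an activin subunit, was higher at 53.2 and 43.9 CPM against 21 and 21.3 CPM. Of 19 glucocorticoid-responsive genes 3 were higher and 8 lower, with a median log2 fold change of -0.0025, 9 positive and 10 negative. Beside both lists, 19.2% of all tested genes were higher and 17.1% lower. The 3 higher ones were Fkbp5 and Sgk1, by 1.44 and 1.35 times, and Nr3c2, the mineralocorticoid receptor, by 2.52 times. Cdkn1a was 1 of the 8 lower ones (7.24 and 6.03 CPM against 17.0 and 17.6 CPM). When either social defeat library was left out, 1 gene of this list was higher and 1 lower.

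The exposed and home-cage comparisons rest on different libraries, and their log2 fold changes were close for most genes. Over 18083 genes tested in both, Pearson's r was 0.93 and Spearman's rho 0.86, across genes, which are not independent and which share the 2 tissues and the imbalance between NAc replicates 1 and 2. Of the genes higher in exposed mice 35.1% were also higher in home-cage mice, and of those higher in home-cage mice 96.3% were also higher in exposed mice. For lower genes the shares were 28.4% and 91.3%, and 0 genes were called in opposite directions. Home-cage calls rested on the spread of few libraries: without mPFC home-cage replicate 1 or 2 edgeR called 0 genes, with 2680 and 2724 at an unadjusted p under 0.05. Without NAc home-cage replicate 1 there were 3041 higher and 2477 lower, and without replicate 2 there were 4184 and 3864. Among 4478 genes called only in exposed mice and tested in both, 4425 had the same sign in home-cage mice.

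**Figure D5:**
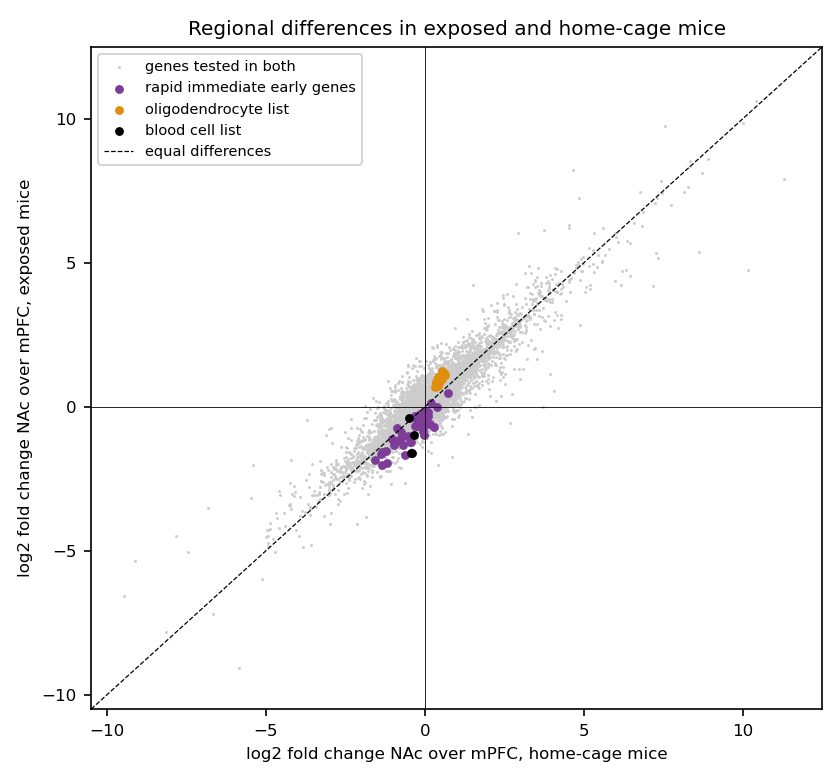
Log2 fold change of NAc over mPFC in exposed mice (y axis) against that in home-cage mice (x axis), 1 point per gene tested in both, with early, oligodendrocyte and blood cell genes in colour and a dashed line where the differences are equal. Most early genes lie below the line and all 15 oligodendrocyte genes above it.

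The difference between the 2 regional differences was tested in 1 fit of all 8 libraries. Of 18783 genes tested, edgeR called 0 in either direction (0.0%), with a smallest adjusted p of 0.999924, and 415 had an unadjusted p under 0.05, of which 259 were positive and 156 negative. The DESeq2 Wald test called 2 genes, Hba-a1 (-1.21 on the log2 scale, adjusted p = 0.0119) and Ovca2 (-0.92, adjusted p = 0.00792). Ovca2, a serine hydrolase, read 8.93 and 9.88 CPM after cocaine, 12.6 and 12.3 CPM after social defeat, 6.58 and 7.11 CPM in home-cage NAc and 4.89 and 4.46 CPM in home-cage mPFC. The order of the regions was thus reversed between exposed and home-cage mice in this gene, which did not pass in this edgeR fit.

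Of the 37 early genes, 36 had a negative difference, meaning a lower log2 fold change of NAc over mPFC in exposed than in home-cage mice. This does not by itself place NAc below mPFC: the log2 fold change was positive for 2 of the 37 in exposed mice and for 8 in home-cage mice. The share of negative differences over all tested genes was not counted. Of the 37, 9 had an unadjusted p under 0.05, but 0 passed. The differences were -0.80 (SE 0.143) for Dusp1, -0.96 for Junb, -0.76 for Arc and -0.98 for Btg2. All 15 oligodendrocyte genes had a positive difference, with a median of 0.51 and 0 at an unadjusted p under 0.05. Besides Dusp1, Hba-a1 and Ovca2, the genes with the smallest p on the negative side were Pdp1, a phosphatase of pyruvate dehydrogenase (-0.45), and Slc4a1, the anion exchanger of red cells (-2.44), which had 22 and 15 counts after cocaine and 57 and 89 after social defeat. On the positive side they were Kcne1, a potassium channel subunit (3.25, with at most 0.107 CPM in the exposed libraries), and 4 provisional or uncharacterized genes. For Drd2 and Six3 the differences were small beside their errors, at -0.35 (SE 1.09) and 0.20 (SE 3.31).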

How the data were processed

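Total RNA was measured in 8 libraries from 2 brain regions, 4 of which form the comparison described here. The deposited tables, 1 per region, hold raw counts per gene symbol, which the authors made with STAR 2.7.1a and featureCounts on mm10, per the submitters' processing notes. The sources used here give neither the counting options nor the annotation. Groups were taken from titles and treatment labels.

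Counts were tested in R 4.3.3 with edgeR 4.0.16 (filterByExpr, TMM, estimateDisp, glmQLFit and glmQLFTest, defaults), fitted over the 4 libraries compared, or over all 8 for the difference of the regional differences. The threshold was 0.05 on the p adjusted by Benjamini-Hochberg over all genes tested, which is the adjusted p printed wherever no other tool is named. The standard error (SE) was taken from each fold change and the square root of its F statistic. CPM used TMM factors over 8 libraries. With 2 libraries against 2, the smallest two-sided p of an exact permutation test is 0.33, and none was run. Alternatives used limma 3.58.1 (voom), DESeq2 1.42.0, other scalings, no filter, glmTreat against a 2-fold change, 1 fit of 8 libraries, and each library left out. Tables were made in python 3.11.15 with pandas 2.3.3 and numpy 2.4.6, and plots with matplotlib 3.10.9.

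Named genes were the 10 per direction with the largest log2 fold change among genes that passed, did not overlap between groups and had a mean of at least 5 CPM in the higher region, with provisional models skipped; a set of known striatal, cortical and early genes; up to 3 per direction from each of 42 lists; and the 5 per direction with the smallest p in the difference test. Some genes of these rules are not reported here. Other members named were chosen after their values were seen. The comparison, the members and the lists were chosen with earlier results of these data known. Gene positions and promoters are from RefSeq on GRCm38.p6, which is mm10, and gene spans from GENCODE release M21.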

Additional observations from a re-analysis of the deposited data

How the results depend on the processing

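The settings were chosen with earlier results of these data known. Against the 3524 genes higher and 3148 lower in NAc of exposed mice, glmTreat against a 2-fold change gave 446 and 231, and leaving out 1 library gave between 641 and 4797 higher and between 492 and 4537 lower. Other scalings, DESeq2, limma-voom, no low-count filter and 1 fit of all 8 libraries gave between 3034 and 3478 higher and between 2647 and 3259 lower. For home-cage mice, against 1283 and 979, DESeq2 gave 2024 and 1659, the fit of 8 libraries 2484 and 2170, glmTreat 174 and 140, and leaving out 1 library between 0 and 4184 higher and between 0 and 3864 lower.

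For the difference of the regional differences, DESeq2 called 0 higher and 2 lower genes. The replicate block, a term for the number in the NAc titles, called 1 higher, Rspo2 (0.84, adjusted p = 0.0183), and 2 lower, Hba-a1 (-1.23, adjusted p = 0.00121) and Ovca2 (-0.93, adjusted p = 0.0244). The deviations of the 2 NAc libraries numbered 1 correlated at 0.77 across genes, which is a hint from the data and not from the design, and the exposed groups share no number. Leaving out 1 library gave between 0 and 1 lower gene, Lgr6 (-3.17, adjusted p = 0.00189), without NAc home-cage replicate 1, and 0 higher.

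The naming rule gave 195 genes, of which 191 passed in exposed mice, since most were named because they passed with large fold changes. For the same reason, that 0 of the 195 changed direction under any setting run says little of other genes. Chrm4 and Wfs1, which are not among the 195, turned with the cocaine library left out. Calls lost were 100 and 88 without social defeat replicate 1 and 2, 112 with glmTreat, 22 in the fit of 8 libraries, 3 with upper quartile scaling, 3 with limma-voom, 2 with DESeq2 size factors and 1 with DESeq2. Slc17a7 and Hba-a2 were lost with both scalings. Of 84 counts of list members higher or lower, 60 and 55 moved by over 1.5 times without social defeat replicate 1 and 2, and 13 and 17 without cocaine replicate 1 and 2. The cause of the lost calls was not tested, beyond that a fit without 1 social defeat library takes its spread from the 2 cocaine libraries alone.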
